A study of Rattus norvegicus with 7 samples.

Results

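The 31 genes described here mark neurons and GABAergic interneurons, the inhibitory nerve cells of the forebrain. They were taken by symbol from the 32852 genes of the deposited table, and all 31 symbols were found. The rule uses no measured value, but the list was chosen with earlier results of these data known. They were measured by RNA sequencing in wild-type rat oligodendrocyte progenitor cells, the precursors of myelinating cells, isolated from brain at postnatal day 7. All cultures were transfected with Lipofectamine RNAiMAX, switched to differentiating medium at that time and collected after 4 to 5 days. The groups were a control siRNA (4 libraries) and siRNLTR12-int (3 libraries), which targets RNLTR12-int, a sequence of retroviral origin in the rat genome. The labels call the libraries biological replicates but name no animal, culture or day, so the p-values rest on a spread between libraries that may be technical. Transcripts of RNLTR12-int were not analysed here, and how far the siRNA lowered them is not reported.

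Interneurons arise in the ventral forebrain under the Dlx homeodomain transcription factors, which also restrain the formation of oligodendrocyte progenitors from the same precursor pool. Interneurons make GABA with the decarboxylases Gad1 and Gad2 and load it into vesicles with Slc32a1, while excitatory neurons load glutamate with Slc17a6 or Slc17a7. Neuronal RNA-binding proteins, cytoskeletal proteins and the vesicle release machinery mark later steps of neuronal maturation. Oligodendrocyte progenitors are known to transcribe part of the release machinery themselves, so a transcript of this group in a progenitor culture does not by itself identify a neuron.

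The libraries held 22523873 to 61803693 recovered reads. The progenitor markers Pdgfra, Olig2 and Sox10 were present in all 7 libraries, with Pdgfra at 13936 to 53300.5 normalised counts. Before any comparison, 3 libraries stood apart from the other 4. The summed normalised counts of 10 astrocyte markers reached 578990 in control replicate 1, 517690 in control replicate 2 and 640490 in siRNLTR12-int replicate 1; the remaining 4 libraries held 131900 to 153380. Control replicate 2 also held 905640 summed counts of 8 oligodendrocyte markers, while no other library exceeded 262790. Genes of interneuron subtypes outside the 31 were mixed, with 12 of 14 at a mean of at least 10 normalised counts, as were 18 of 22 neuronal lineage factors. Reln (1008 to 4196), Erbb4 (972 to 2478) and Calb1 (248 to 990.3) were present in every library, while Vip reached at most 2.5, Lhx6 5.3 and Isl1 2.9 in any library.

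No member of the group was called different between the siRNAs over the 7 libraries. Of the 31 members, 30 had a mean of at least 10 normalised counts and were tested with limma on log2(normalised count + 1), with Benjamini-Hochberg adjustment over all 18225 genes tested. None of the 30 passed an adjusted p of 0.05, where 0.0% of all genes did, and none had an unadjusted p under 0.05, where 6.3% of all genes (1149) did. Fitted log2 differences, siRNLTR12-int minus control, were positive for 16 members and negative for 14. Their median was 0.10, against 0.01 over all genes tested. Leaving out 1 library moved it from -0.12 (12 positive, 18 negative, without siRNLTR12-int replicate 3) to 0.20 (22 positive, 8 negative, without siRNLTR12-int replicate 1), and it was also negative without control replicate 1 (-0.04) or 3 (-0.01), in each case with 0 members called. The smallest adjusted p was 0.858, for Syn1. In the authors' deposited table, which rests on DESeq2, 0 of the 30 members with an adjusted p were called, where 0.752% of all genes were (141 of 18747), and 0 had an unadjusted p under 0.05. edgeR's quasi-likelihood test on the recovered reads called 0 members and 0 of all genes, 1165 of which had an unadjusted p under 0.05. Standard errors in limma ran from 0.12 for Map2 to 0.72 for Slc17a7 on the log2 scale, so the design left wide intervals for most members, and a missed threshold does not show that levels were alike.

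**Figure D1:**
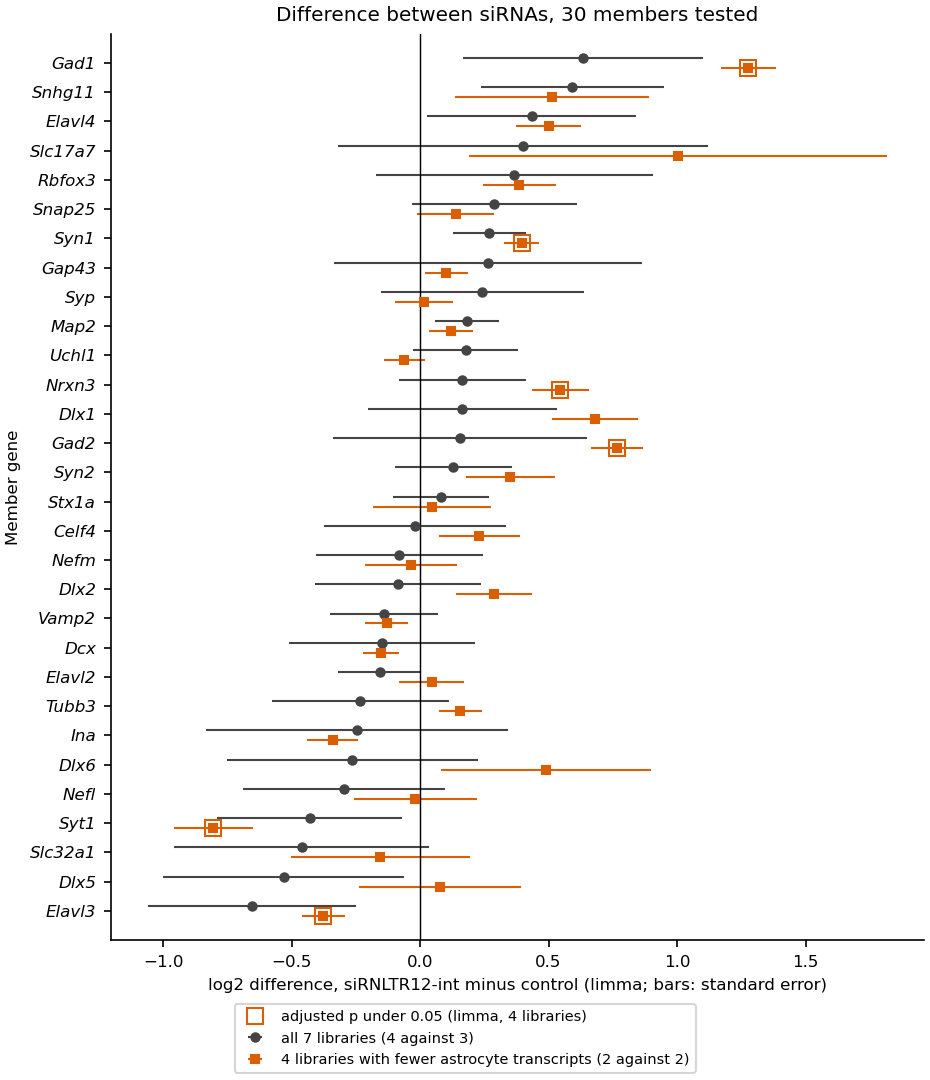
Fitted log2 difference (siRNLTR12-int minus control, x axis) of the 30 tested members (y axis), with standard errors as bars, from limma in all 7 libraries (circles) and in the 4 libraries with fewer astrocyte transcripts (squares). In 7 libraries the values run from -0.66 for Elavl3 to 0.63 for Gad1 and none is called, while in the 4 libraries the 6 outlined squares have an adjusted p under 0.05.

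The 4 Dlx genes, homeodomain factors of the interneuron lineage, were detected in every library and were highest in control replicate 2. Dlx1 (ENSRNOG00000001520) had 437, 920.1, 319 and 346 normalised counts in the control libraries and 478, 458 and 621 in the siRNLTR12-int libraries, listed by replicate number as are all values that follow. Its partner gene Dlx2 had 269, 510.1, 206 and 211 in controls and 276, 238 and 273 after the siRNA. For both genes the siRNLTR12-int values lay within the control range. Dlx5 had 60.3, 177, 46.5 and 74.5 in controls and 40.2, 54.4 and 70.9 after the siRNA, a log2 difference of -0.53 with an SE of 0.47 (limma adjusted p = 0.951), which became -0.14 without control replicate 2. Dlx6 had 41.1, 79.8, 31.9 and 19.5 in controls and 24.7, 27.8 and 45.1 after the siRNA, again with the groups overlapping. An antisense transcript is known to overlap Dlx6, and the sources used here do not give whether reads were counted by strand.

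Transcripts for GABA synthesis were present in every library and split the libraries differently from those for its transport. Gad1 (ENSRNOG00000000007), which encodes the larger GABA-synthesising decarboxylase, had 411, 1304, 505 and 546 normalised counts in controls and 549, 1191 and 1364 after the siRNA. Control replicate 2 and siRNLTR12-int replicates 2 and 3 were high, at 1191 to 1364, and the other 4 libraries lay between 411 and 549. The group means were 692 ± 412 (SD, n = 4) and 1035 ± 429.6 (SD, n = 3), a log2 difference of 0.63 with an SE of 0.47 (limma adjusted p = 0.929). Leaving out 1 library moved it from 0.38 (without siRNLTR12-int replicate 3) to 1.04 (without siRNLTR12-int replicate 1). Gad2 (ENSRNOG00000018200), the vesicle-associated form of the enzyme, had 274, 678, 409 and 419 in controls and 209, 710.2 and 699.5 after the siRNA. The same 3 libraries were the highest for Gad2, and siRNLTR12-int replicate 1 was the lowest. Its log2 difference was 0.15 with an SE of 0.49 (limma adjusted p = 0.993). Slc32a1, the vesicular GABA transporter, had 45.9, 185, 56.9 and 78.1 in controls and 51.2, 44.3 and 80.6 after the siRNA. Here control replicate 2 alone was high, and siRNLTR12-int replicates 2 and 3 were not.

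The vesicular glutamate transporters of excitatory neurons rested on few reads. Slc17a6 (ENSRNOG00000016147) had 2.9, 8.7, 4.3 and 3.5 normalised counts in controls and 2.7, 0 and 1.6 after the siRNA. It was the only member whose siRNLTR12-int values all lay below all control values, but these rest on 2 to 12 recovered reads in a control library and 0 to 3 after the siRNA. The 0 reads in siRNLTR12-int replicate 2 allow a level of up to 3.8 normalised counts, which covers counting error only, so this difference is not detectable at this depth, and the gene was below the minimum for testing. Among members with a mean of at least 10, 0 of 30 had groups that did not overlap, where 7.68% of all genes did. Slc17a7 had 19.1, 45.7, 10.3 and 55 in controls and 18.3, 29.1 and 83.8 after the siRNA, with no separation of the groups.

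Among the 7 cytoskeletal and growth cone genes, Gap43 and Nefm followed the 2 sets of libraries, Ina did so only narrowly, and Map2 varied little. Map2 (ENSRNOG00000011841), a microtubule-associated protein of dendrites, had 23613, 21359, 27858 and 25204 normalised counts in controls and 25500.3, 29464 and 28185 after the siRNA. Its log2 difference was 0.18 with an SE of 0.12 (limma adjusted p = 0.918). Tubb3, the neuronal beta-tubulin, had 818, 2035, 1095 and 1148 in controls and 688, 1284 and 1216 after the siRNA. Reads shared with other tubulin genes make its value uncertain, since the sources used here do not give the handling of multi-mapped reads. Dcx, a microtubule protein of migrating neuroblasts, had 4362, 9259, 9519 and 10073 in controls and 4635, 8908 and 8724 after the siRNA. Control replicate 1 and siRNLTR12-int replicate 1 were low for Dcx, at 4362 and 4635, and the other 5 libraries lay between 8724 and 10073. Ina, an intermediate filament protein of early neurons, had 809, 2399, 2925 and 3466 in controls and 884, 2444 and 2593 after the siRNA. Gap43, a protein of growing axon tips, had 923, 1112, 3045 and 2712 in controls and 908, 3031 and 3138 after the siRNA. For Gap43 the 3 libraries with more astrocyte transcripts held 908 to 1112 and the other 4 held 2712 to 3138, in either siRNA group. The neurofilament subunit Nefm had 88, 104, 135 and 151 in controls and 69.4, 132 and 147 after the siRNA. Nefl, the light subunit, had 37.3, 78.4, 58.6 and 67.4 in controls and 27.4, 64.6 and 59.6 after the siRNA. None of these 7 genes had groups that did not overlap.

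Of the 30 tested members, the most negative fitted difference was that of Elavl3, a neuronal RNA-binding protein. Elavl3 (ENSRNOG00000013752), which binds and stabilises neuronal messages, had 930.1, 3146, 1603 and 1740.3 normalised counts in controls and 746, 1299 and 1274 after the siRNA. The means were 1855 ± 931 (SD, n = 4) and 1106 ± 312 (SD, n = 3), and the log2 difference was -0.66 with an SE of 0.40 (limma adjusted p = 0.898). It was -0.36 without control replicate 2 and -0.94 without control replicate 1. The related Elavl4 had 917, 1006, 1871 and 1474 in controls and 899, 2463 and 2241 after the siRNA, with siRNLTR12-int replicates 2 and 3 the highest. Elavl2 had 434, 569, 456 and 389 in controls and 366, 429 and 439 after the siRNA, a narrow range in which control replicate 2 was the highest. Rbfox3, the splicing factor detected by the NeuN antibody, had 102, 172, 288 and 280.3 in controls and 114, 408 and 338 after the siRNA. Celf4 had 236, 684, 280.1 and 330.0 in controls and 322, 324 and 393 after the siRNA, with control replicate 2 again far above the others.

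Among the 8 genes of vesicle release and adhesion, Syn1 and Syt1 showed differences of opposite sign. Syn1 (ENSRNOG00000010365), a protein that tethers synaptic vesicles, had 2959, 3240.0, 3277 and 3273 normalised counts in controls and 3046, 4248 and 4373 after the siRNA. Replicates 2 and 3 of siRNLTR12-int were above all controls and replicate 1 was not, and the log2 difference was 0.27 with an SE of 0.14 (limma adjusted p = 0.858), or 0.18 without siRNLTR12-int replicate 3 and 0.44 without replicate 1. Syt1 (ENSRNOG00000006426), the calcium sensor of fast release, had 669.8, 800.4, 1331 and 1845 in controls and 624, 876 and 918 after the siRNA. Its log2 difference was -0.43 with an SE of 0.36 (limma adjusted p = 0.943), and -0.17 without control replicate 4 or -0.66 without control replicate 1. Nrxn3, a presynaptic adhesion protein, had 3825, 5054, 2892 and 2354 in controls and 3768, 3975 and 3653 after the siRNA, and the siRNA libraries lay within the control range. Snap25, a membrane-fusion protein of the release machinery, had 448, 407, 868 and 653 in controls and 485, 782 and 877 after the siRNA. Its fusion partner Vamp2 had 6429, 12012, 9078 and 10249 in controls and 7488, 8622 and 9023 after the siRNA. Stx1a, the third partner, had 99.5, 106, 96.5 and 131 in controls and 109, 106 and 127 after the siRNA. The ranges of all 3 overlapped between the siRNAs. The vesicle protein Syp had 291, 361, 637 and 738 in controls and 362, 713 and 674 after the siRNA. Syn2, a relative of Syn1, had 126, 203, 140.5 and 149 in controls and 135, 169.6 and 201 after the siRNA.

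Outside these roles stood Uchl1, a ubiquitin hydrolase abundant in neurons, and Snhg11, a noncoding host transcript. Uchl1 had 1468, 954, 1713 and 1618 normalised counts in controls and 1567, 1614 and 1578 after the siRNA, with control replicate 2 the lowest of all. Snhg11 had 34.4, 44.3, 39.6 and 21.3 in controls and 76.7, 40.5 and 43.5 after the siRNA, and siRNLTR12-int replicate 1 was the highest. Its log2 difference was 0.59 with an SE of 0.36 (limma adjusted p = 0.894), and 0.31 without that library.

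Some members separated the 2 sets of libraries that differ in astrocyte transcripts, whichever siRNA was used. In 10 of 30 members (33.3%) the 3 libraries with more astrocyte transcripts were all below the other 4, a pattern held by 17.1% of all genes. In 0 of 30 were they all above, where 18.6% of all genes were. Among 73 other neuronal genes, 21 (28.8%) were all below and 12 (16.4%) all above in those 3 libraries. The 10 were Nefm, Ina, Gap43, Rbfox3, Elavl4, Snap25, Syt1, Syp, Syn1 and Uchl1, from the cytoskeletal, RNA-binding and synaptic roles, Uchl1 apart. The ratio of the medians, fewer over more astrocyte transcripts, was highest for Gap43 (3.29), Ina (3.12) and Rbfox3 (2.74) and lowest for Syn1 (1.24) and Uchl1 (1.10). The gap was narrow for Ina, at most 2399 in the 3 libraries and at least 2444 in the other 4. It was also narrow for Syn1 (3240 and 3273) and Uchl1 (1567 and 1578). Summed progenitor markers, with 9 of 10 listed genes in the table, moved the same way. Their sums were 270770 to 295270 in the 3 libraries and 389540 to 460100 in the other 4. Gene by gene, Pdgfra, Cspg4, Vcan, Olig1 and Olig2 separated the sets, while Ptprz1, Cspg5, Gpr17 and Sox10 overlapped. Summed microglial markers moved the other way, with 9 of 10 in the table and sums of 4152 to 12954 against 1315 to 2012. So did the summed vascular and fibroblast markers, with 8 of 10 in the table, Cldn5 at 0 in every library, and 3197 to 4362 against 1584 to 1712. In control replicate 2 that sum was mostly Pdgfrb, at 2808. The list's mean log2(normalised count + 1) was 5.16 in that library, within the 4.997 to 5.295 of the other 4. It was 6.444 in control replicate 1 and 6.544 in siRNLTR12-int replicate 1, so by this measure the list did not separate the sets. The part of these cell types in the members' levels was not tested. In bulk RNA, fewer cells of a type and less RNA per cell cannot be told apart.

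**Figure D2:**
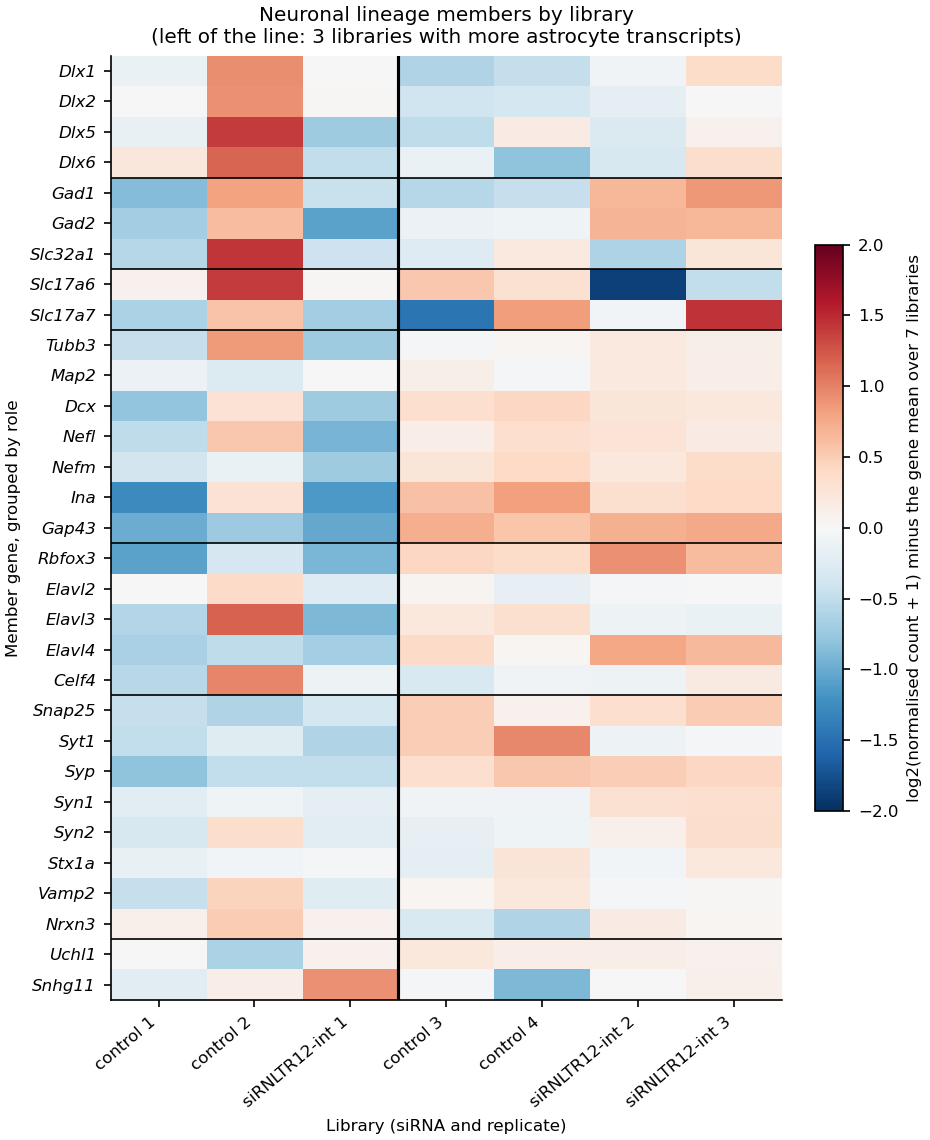
Level of each of the 31 members (rows, grouped by role) in each library (columns), as log2(normalised count + 1) minus the gene's mean over the 7 libraries. The 3 libraries left of the vertical line have more astrocyte transcripts; control replicate 2 among them is the highest of the 7 libraries in 14 members.

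Control replicate 2 was the highest of the 7 libraries in 13 of 30 members (43.3%), where 19.9% of all genes were highest in that library, and in 14 of all 31. The 4 Dlx genes, Slc32a1, Tubb3, Elavl2, Elavl3 and Celf4 were among them. Of 73 other neuronal genes, 22 (30.1%) were also highest in control replicate 2, so the pattern was not limited to the members. Control replicate 1 was the lowest in 9 of 30 members, where 17.4% of all genes were lowest in that library. For siRNLTR12-int replicate 1 it was 10 of 30, where 17.7% of all genes were. The 905640 summed oligodendrocyte marker counts of control replicate 2 stand beside this pattern, and their part in it was not tested. Summed Dlx counts were 1687 in that library and 603 to 1011 in the others.

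**Figure D3:**
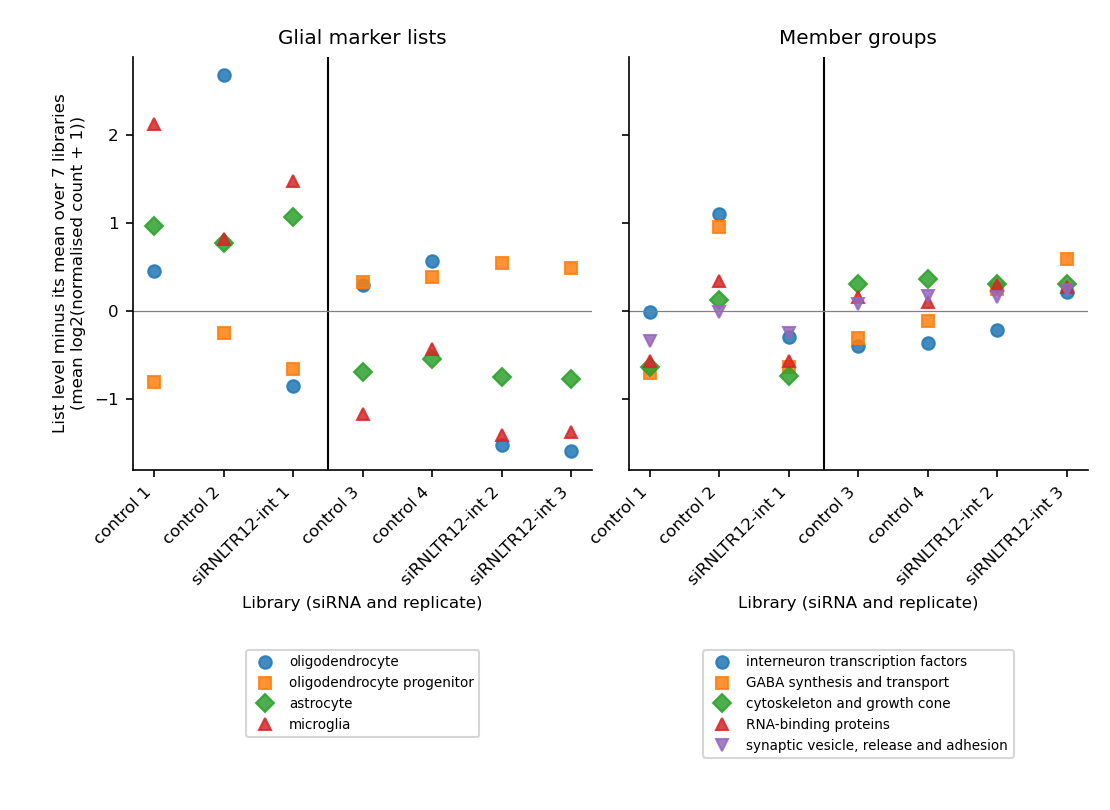
Levels in each library of the astrocyte, microglia, oligodendrocyte and oligodendrocyte progenitor marker lists (left) and each member role with 3 or more genes (right). Each level is the mean log2(normalised count + 1), relative to its mean over the 7 libraries. The vertical line separates the 3 libraries with more astrocyte transcripts. In control replicate 2 the interneuron transcription factors, the genes of GABA synthesis and transport and the oligodendrocyte markers are all at their highest level. The RNA-binding proteins are also highest there, narrowly (9.521, against 9.476 in siRNLTR12-int replicate 2), while the cytoskeletal and synaptic roles are not.

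Within the 4 libraries with fewer astrocyte transcripts (control replicates 3 and 4 against siRNLTR12-int replicates 2 and 3), 6 members passed the limma test. This comparison was added after the data were seen. Gad1, Gad2, Syn1 and Nrxn3 were higher after the siRNA, 4 of 30 members where 4.02% of all genes were called higher. Syt1 and Elavl3 were lower, 2 of 30 where 2.67% of all genes were called lower. Gad1 had 505 and 546 normalised counts in the controls and 1191 and 1364 after the siRNA, a log2 difference of 1.28 with an SE of 0.11 (limma adjusted p = 0.00816). Gad2 rose by 0.77 on the log2 scale with an SE of 0.10 (limma adjusted p = 0.0141). Syn1 rose by 0.40 with an SE of 0.07 (limma adjusted p = 0.0258), and Nrxn3 by 0.55 with an SE of 0.11 (limma adjusted p = 0.0403). Syt1 fell by 0.81 on the log2 scale with an SE of 0.15 (limma adjusted p = 0.0335), and Elavl3 fell by 0.38 with an SE of 0.08 (limma adjusted p = 0.049). Dlx1 (0.68, limma adjusted p = 0.0622) and Elavl4 (0.50, limma adjusted p = 0.0667) narrowly missed the threshold and were not called. Oligodendrocyte marker sums were 191940 and 262790 in these controls and 59753 and 53638 after the siRNA, while astrocyte sums were within 131900 to 153380 in all 4. Progenitor marker sums were 389540 and 397620 in these controls and 460100 and 440110 after the siRNA. The progenitor genes did not move together: Pdgfra, Cspg4, Ptprz1, Cspg5, Olig1 and Olig2 were higher after the siRNA, while Gpr17, Vcan and Sox10 were lower. The part of these cells in the 6 members' differences was not tested.

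The other 3 libraries, control replicates 1 and 2 and siRNLTR12-int replicate 1, have 1 siRNA library and gave no test. There the log2 difference was -0.42 for Gad1, -1.04 for Gad2, -0.02 for Syn1 and -0.22 for Nrxn3, so none of the 4 was positive. It was -0.23 for Syt1 and -1.20 for Elavl3, negative as in the other 4 libraries. Whether the differences of the 2 sets differ from each other was not tested. Map2 and Snhg11 were higher after the siRNA in both sets without overlap, 2 of 30 members where 14.5% of all genes were. Elavl3 and Syt1 were lower in both, 2 of 30 where 11.2% of all genes were, as was the untested Slc17a6. These shares are below those of all genes. With the astrocyte split as a term in the fit of all 7 libraries, 0 members and 0 of all genes were called, and Syt1 had a log2 difference of -0.57 (limma adjusted p = 0.235). With limma's array weights, which give less weight to libraries far from the fit, Gad1 (1.15, adjusted p = 0.0457) and Syn1 (0.41, adjusted p = 0.0338) were called, 2 of 30 members where 4.6% of all genes were.

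**Figure D4:**
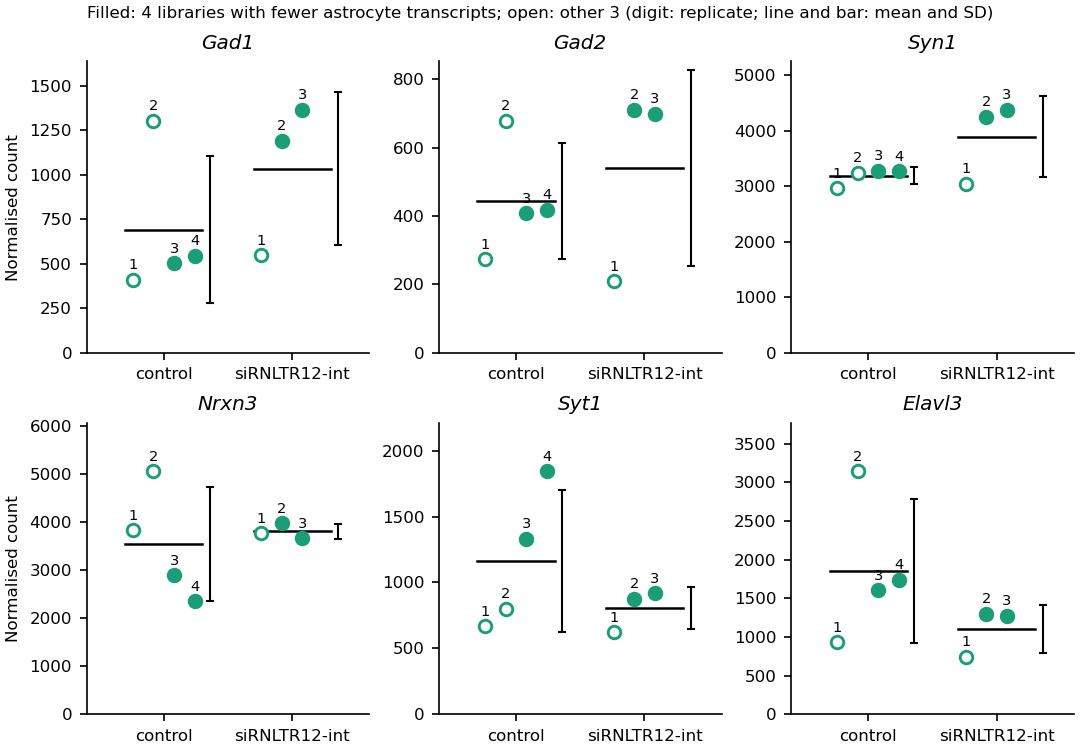
Normalised counts (y axis, from 0) of the 6 members called in the 4 libraries with fewer astrocyte transcripts, by siRNA; each point is a library, digits give the replicate, filled points are those 4 libraries, open points the other 3, and lines with bars are the mean and SD of all libraries of the group. For Gad1 the filled points separate by siRNA, while the open point of control replicate 2, at 1304, lies among the siRNLTR12-int values.

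The sequences upstream of 4 of these 6 genes are shown as examples, because their transcripts differed between the same 4 libraries. They are the 250 bases before the annotated start, from RefSeq on build GRCr8, which is not the build named in the submitters' processing notes. Sequences were available for 21 of the 31 members. Nrxn3 was not among them, and Elavl3 was but is not shown. Neither Elavl3 nor Gad1, which is shown, had a match to the motifs below. Capitals mark matches, on either strand, to the letters TAATTA (a homeodomain core), CAGCTG (an E-box), CAGCACC or GGACAG (the left and right parts of RE1, the element bound by the neuronal repressor REST). Gad1 is at chr3:75777202-75777451 (plus strand), Gad2 at chr17:89671468-89671717 (plus strand), Syn1 at chrX:3725495-3725744 (plus strand) and Syt1 at chr7:46244214-46244463 (minus strand).
Gad1: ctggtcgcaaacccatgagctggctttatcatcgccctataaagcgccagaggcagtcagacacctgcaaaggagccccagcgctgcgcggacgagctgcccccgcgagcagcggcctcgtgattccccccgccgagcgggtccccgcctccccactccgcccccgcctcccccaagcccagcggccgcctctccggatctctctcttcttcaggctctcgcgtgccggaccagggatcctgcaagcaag
Gad2: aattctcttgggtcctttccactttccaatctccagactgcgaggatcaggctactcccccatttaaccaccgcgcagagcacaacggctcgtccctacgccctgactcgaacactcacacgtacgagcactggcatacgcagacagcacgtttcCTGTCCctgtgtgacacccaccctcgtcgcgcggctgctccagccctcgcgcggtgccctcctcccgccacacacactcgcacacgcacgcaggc
Syn1: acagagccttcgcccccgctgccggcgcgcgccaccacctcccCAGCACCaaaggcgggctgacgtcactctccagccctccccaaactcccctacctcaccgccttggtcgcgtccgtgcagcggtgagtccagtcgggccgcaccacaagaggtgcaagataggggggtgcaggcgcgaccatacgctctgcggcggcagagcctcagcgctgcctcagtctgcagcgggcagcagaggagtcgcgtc
Syt1: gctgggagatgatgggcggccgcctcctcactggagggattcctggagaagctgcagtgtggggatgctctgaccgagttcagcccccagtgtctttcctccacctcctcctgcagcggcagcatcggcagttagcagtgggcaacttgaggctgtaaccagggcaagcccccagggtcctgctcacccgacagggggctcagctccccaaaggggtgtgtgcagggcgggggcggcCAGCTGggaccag
TAATTA was found in 1 of the 21 members (Dcx), and in 4.86% of all 33469 upstream regions of this length. CAGCTG was found in 5 members (Elavl2, Ina, Slc17a6, Syp and Syt1), and in 12.0% of all regions. CAGCACC was found in 3 (Elavl4, Syn1 and Tubb3), and in 5.43% of all, and GGACAG in 2 (Gad2 and Slc17a7), and in 18.2% of all. CAGCTG and CAGCACC share their first 4 letters, and no motif contains another. Median GC content was 66.8% in the members' regions and 51.2% in all regions, and its part in these counts was not tested. A match describes letters only and is not evidence of binding.

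A wider list of 79 neuronal genes was fitted in the same way over the 7 libraries. Of these, 73 were tested, 0 were called and 4 had an unadjusted p under 0.05, 3 higher and 1 lower, where 6.3% of all genes did. Fitted differences were positive for 43 and negative for 30, with a median of 0.11 (log2). Cnr1, the cannabinoid receptor found on some interneurons, had 2280.2, 2006, 2804 and 1545 normalised counts in controls and 2973, 6457 and 5392 after the siRNA, so the groups did not overlap. Its log2 difference was 1.15 with an SE of 0.30 (limma adjusted p = 0.661). In the authors' deposited table Cnr1 had a log2 fold change of 1.19 and an adjusted p of 0.0452, and was the only gene of the wider list called there. Syt4, a synaptotagmin of dense-core vesicles, had 452, 444, 662 and 449 in controls and 568, 1334 and 1394 after the siRNA (limma adjusted p = 0.702). Nrgn, a postsynaptic calmodulin-binding protein, had 414, 172, 665 and 339 in controls and 549, 1133 and 885 after the siRNA (limma adjusted p = 0.755). Gsx2, a factor of ventral forebrain progenitors, and Nefh, the heavy neurofilament subunit, also had groups that did not overlap, both higher after the siRNA. These 3 of 73 genes are 4.11%, where 7.68% of all genes had groups that did not overlap. Gsx2 had 119.6, 112, 96.5 and 63.9 in controls and 125, 123 and 135 after the siRNA, and Nefh had 23.9, 18.9, 34.5 and 21.3 in controls and 37.5, 35.4 and 36.3 after the siRNA. In the 4 libraries with fewer astrocyte transcripts, 12 of the 73 were called by limma, 10 higher and 2 lower, where 4.02% of all genes were called higher and 2.67% lower. Those higher included Cnr1, Nxph1, Sp8, Celf3, Syt4, Camk2b, Nsg2, Scg2 and Vgf, and the lower were Dpysl3 and Pbx3.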

How the data were processed

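RNA sequencing libraries of 4 control siRNA and 3 siRNLTR12-int cultures were analysed. Salmon, DESeq2 and build Rnor_6.0 are named, with no versions, in the submitters' processing notes. The authors deposited normalised counts per gene (a signal), each library divided by its own size factor. The authors' comparison table gives, per the file headers, a mean signal, log2 fold changes of siRNLTR12-int over control with standard errors and a test statistic (a score), p-values and adjusted p-values. All values were whole multiples of 1 step per library (tolerance 0.01 of a step), which gave back reads, 22523873 to 61803693 per library. Rounded estimates would look the same.

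From these, log2(normalised count + 1) of the 18225 genes with a mean of at least 10 was tested with limma 3.58.1 (R 4.3.3, mean-variance trend, two-sided, Benjamini-Hochberg, 7 libraries, no covariate). Differences on this scale understate changes of low genes. Alternatives were pseudocounts of 0.25 and 8, a minimum mean of 50 or none, upper-quartile and TMM scaling, leaving out each library, array weights, a block by replicate number, a fit without trend, and the recovered reads tested with edgeR 4.0.16 or DESeq2 1.42.0. The fit was tested on simulated counts with a small spread and no astrocyte split. That test does not show how the fit performs on these libraries. The 2 sets of libraries come from the largest gap in the astrocyte list level, and fits using them were added after the data were seen. Members, lists and tests were chosen with earlier results of these data known. Values in every library are given for members with a mean of at least 100 or groups that do not overlap, and for the extremes by p of each role. In the wider list the 3 genes with the smallest p and those with groups that do not overlap are named. Other genes were named after their values were seen. A called gene of the wider list is not reported here. Gene lengths were not used, so levels are not compared between genes.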

Additional observations from a re-analysis of the deposited data

Results flagged for a closer look

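In each member, the 4 control libraries were searched for a single library whose gap to its nearest neighbour was over Dixon's critical share of the group's range for 4 samples. Of 31 control groups tested, 3 had such a library, and chance alone flags about 1 in 20 groups. Gad1 was high in control replicate 2, at 1304 normalised counts, with a gap of 0.849 of the range. Dcx was low in control replicate 1, at 4362, with a gap of 0.857. Syn1 was low in control replicate 1, at 2959, with a gap of 0.884. Control replicates 1 and 2 are both libraries with more astrocyte transcripts, and the part of that in these values was not tested.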

How the results depend on the processing

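The 30 tested members were refitted under 20 alternatives. Of 597 values, 547 kept their sign and their side of the threshold, 8 were newly past the threshold and 42 changed sign, in 17 of the 30 members. The count of genes called, 0 in the comparison of 7 libraries, was 839 with array weights, 141 with DESeq2 and 1218 in the 4 libraries with fewer astrocyte transcripts, and ranged from 0 to 2 when 1 library was left out (2 without control replicate 4). Members called, 0 there, were 2 with array weights and 6 in the 4 libraries. Genes of the wider list called were 5, 1 and 12 with array weights, DESeq2 and the 4 libraries. The signs that changed with array weights were those of Dlx2 (0.13), Dlx6 (0.36), Tubb3 (0.058), Nefm (0.077), Elavl2 (0.001) and Celf4 (0.15). In the 4 libraries they were those of Dlx2 (0.29), Dlx5 (0.076), Dlx6 (0.49), Tubb3 (0.16), Elavl2 (0.045), Celf4 (0.23) and Uchl1 (-0.061), and with the astrocyte split as a term those of Dlx2 (0.004), Gap43 (-0.002) and Celf4 (0.011). The cause was not tested. Same-numbered libraries did not all deviate together (correlations 0.746, -0.191 and 0.632 for replicates 1, 2 and 3). Control replicate 2 and siRNLTR12-int replicate 2 are in different astrocyte sets, so this check cannot tell whether the numbers pair the libraries. A replicate block called 0 genes and 0 members and changed the sign of Nefm (0.042) and Nrxn3 (-0.01). Leaving out 1 library at a time gave log2 differences from -0.011 to 0.50 for Dlx1, -0.23 to 0.20 for Dlx2, -0.57 to 0.088 for Dlx6, -0.14 to 0.74 for Gad2, -0.21 to 0.86 for Slc17a7, -0.42 to 0.055 for Tubb3, -0.43 to 0.16 for Dcx, -0.52 to 0.087 for Nefl, -0.29 to 0.25 for Nefm, -0.70 to 0.26 for Ina, -0.041 to 0.85 for Gap43, -0.21 to 0.30 for Celf4, -0.008 to 0.28 for Syn2, -0.01 to 0.36 for Nrxn3 and -0.009 to 0.27 for Uchl1. Members that kept their sign ranged from 0.38 to 1.04 (Gad1), -0.94 to -0.36 (Elavl3), -0.78 to -0.14 (Dlx5), -0.66 to -0.17 (Syt1), 0.31 to 0.76 (Snhg11), 0.18 to 0.44 (Syn1), 0.12 to 0.24 (Map2), -0.71 to -0.052 (Slc32a1), 0.018 to 0.93 (Rbfox3), 0.17 to 0.90 (Elavl4), -0.24 to -0.052 (Elavl2), 0.12 to 0.55 (Snap25), 0.011 to 0.55 (Syp), 0 to 0.18 (Stx1a) and -0.31 to -0.013 (Vamp2). For Stx1a the lowest value rounded to 0, which has no sign and was not counted as a change. In each fit that left out 1 library, 0 members were called. Depth limits Slc17a6, at 0 to 12 reads per library.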
